A study of Drosophila melanogaster with 3 samples.

Results

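The peaks described here are those of dH1K27me2, the dimethylated form of lysine 27 of the Drosophila linker histone, at the far end of the sequence named Uextra. They were chosen by position in the authors' list, as the peaks on Uextra whose midpoint lay at or past position 28000000. The rule took 220 of the 4751 peaks in the list, which is 4.63% of them, and 220 of the 2343 peaks on Uextra, or 9.39%. The stretch was selected on its known peak density and scores, so its peak density, widths, scores and spacing are given as a description and no test was made of them. The study mapped the mark by chromatin immunoprecipitation and sequencing in S2 cells, an established line of Drosophila melanogaster embryonic origin. It holds 2 immunoprecipitations with a home-made rabbit antibody against dH1K27me2 and 1 input, which is genomic DNA without antibody. All 3 samples came from wild-type S2 cells with no treatment given in the labels. The name of the list says that the immunoprecipitations were merged before the comparison with the input, so no value below has a replicate error, and no read counts came with the list, so depth is unknown.

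A linker histone binds where DNA enters and leaves the nucleosome and helps to fold the chromatin fibre. Drosophila has a single somatic form, dH1, which is abundant in the compact heterochromatin around centromeres. Uextra is not a chromosome. In the dm3 assembly, the build named in the submitters' processing notes, it is a chain of small scaffolds joined end to end, which could not be placed on any chromosome and are rich in the repeats of heterochromatin. Neighbours on Uextra therefore need not be neighbours in the nucleus, and a distance between peaks can span a join between scaffolds. U is a separate chain of unplaced scaffolds. The joins between scaffolds, the genes and the repeats of this assembly were not used here, so none of the peaks below is assigned to a gene, a repeat or a chromosome.

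Counted in windows of fixed length, the end of Uextra was the most densely occupied stretch of the list. From position 28000000 to the end of the last peak at 29003780, a length of 1003.78 kb, there were 219.2 peaks per Mb (exact 95% Poisson interval of the count 191.2 to 250.1). The earlier 28 Mb of Uextra held 2123 peaks, or 75.8 per Mb (72.6 to 79.1), and U held 615 peaks over 10.03 Mb, or 61.3 per Mb (56.5 to 66.3). The end was thus 2.89 times as dense as the earlier part and 3.58 times as dense as U. These intervals cover the counting of peaks and not the variation between samples. The end made up 3.46% of the length of Uextra measured in this way and held 9.39% of its peaks.

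In windows of 1 Mb the earlier part of Uextra ranged from 54 to 121 peaks over 28 windows, with a median of 78.5. The window that starts at 28 Mb held 218. The 10 full windows of U held 16 to 102 peaks, and the 7 full windows of the sequences named Het, scaffolds of heterochromatin with a known chromosome, held 97 to 148. The fullest of the 157 windows outside the end stretch was on arm 3L, with 166 peaks. The end stretch did not stand apart in the bases covered. Its peaks covered 26.6% of it, against 11.0% of the earlier part and 15.5% of U, but the full 1 Mb windows of the Het sequences were covered to between 28.2 and 48.4%.

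**Figure D1:**
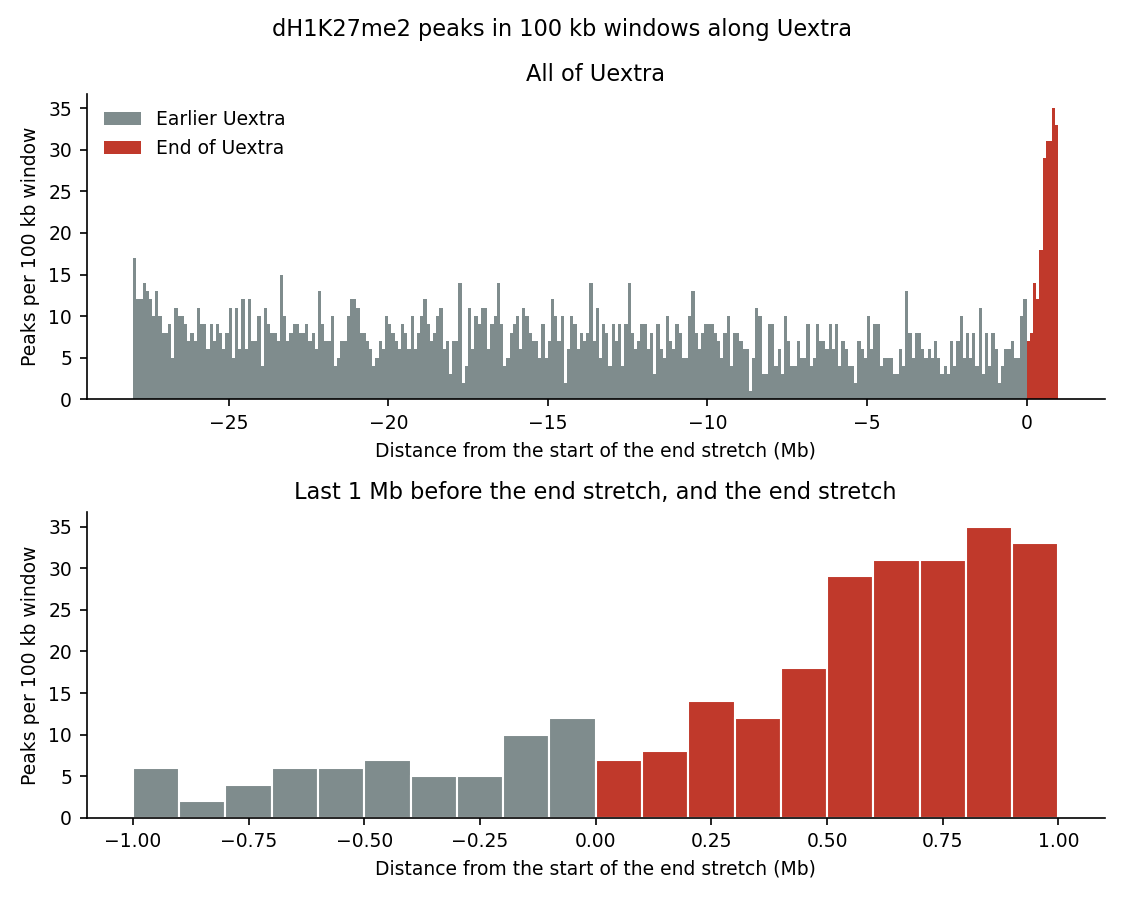
Number of dH1K27me2 peaks (vertical axis) in each full 100 kb window along Uextra, by distance in Mb from the start of the end stretch (horizontal axis), over all of Uextra (top) and around the boundary (bottom). Grey bars are earlier Uextra, with 1 to 17 peaks per window, and red bars are the end stretch, which climbs from 7 to 35 peaks per window.

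The peaks were not spread evenly within the stretch, as the plot of counts per 100 kb window shows. The first 2 windows of 100 kb held 7 and 8 peaks, close to the median of 7.5 over the 280 windows of earlier Uextra. The next 3 held 14, 12 and 18. The last 5 full windows held 29, 31, 31, 35 and 33. No other full 100 kb window of the list held 29 or more. The highest of the 1623 windows outside the stretch held 22, and the highest in earlier Uextra held 17. The rise in density therefore lay inside the stretch and not at its boundary. The first 500 kb held 59 of the 220 peaks, at 118 per Mb, and the remaining 503.78 kb held 161, at 319.6 per Mb. Peaks covered 11.4% of the first 500 kb and 41.6% of the rest.

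The peaks on either side of the boundary were mostly low in score. The 2 peaks just outside it lay at 27997383 to 27998206, with a score of 65.25, and at 27998838 to 27999642, with a score of 56.03. The 2 just inside lay at 28014418 to 28015540, with a score of 307.66, and at 28029209 to 28029987, with a score of 59.15. The gap across the boundary was 14775 bp, within the interquartile range of the distances in earlier Uextra (3111.75 to 16093 bp). Of these 4 peaks, only the first one inside scored above the median of the whole list, which was 137.8.

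Taken over each part as a whole, neighbouring peaks lay closer together in the end stretch than in earlier Uextra or on U. Short spacing was not confined to the end. Successive distances near the start of Uextra included 395, 962, 602, 639, 128, 769 and 1 bp. From one peak's end to the next one's start, the median distance was 1499 bp over the 219 distances of the end stretch (interquartile range 511 to 4004.5 bp). It was 7709.5 bp in earlier Uextra (3111.75 to 16093 bp) and 5098.5 bp on U (1044.75 to 14410 bp). Measured between midpoints, the medians were 2752, 9169 and 7868 bp. Distances under 1 kb made up 39.7% of those in the end stretch (87 of 219, 95% Wilson interval 33.5 to 46.3%). They made up 9.99% in earlier Uextra (212 of 2122, 8.79 to 11.3%) and 24.6% on U (151 of 614, 21.4 to 28.2%). For distances under 200 bp the end stretch and U were close, at 11.0% (7.48 to 15.8%) and 9.45% (7.38 to 12.0%), and earlier Uextra had 1.65% (1.19 to 2.29%). At the other extreme, distances over 10 kb made up 7.31% in the end stretch, 41.3% in earlier Uextra and 34.0% on U.

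Spacing followed density along the stretch, which it largely restates. The median distance was 4765 bp in the first 500 kb and 1157.5 bp in the rest. The longest distance between neighbouring members, 40928 bp, separated the peaks at 28031409 to 28032256 and at 28073185 to 28074263, both in the first 100 kb. The shortest, 7 bp, separated the peaks at 28617510 to 28618529 and at 28618537 to 28619259, which had scores of 375.51 and 411.92.

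Most members belonged to small groups. When members less than 1 kb apart were joined into runs, 138 of the 220 (62.7%) were in 51 runs of 2 or more, and 82 stood alone. The same rule put 391 of the 2123 peaks of earlier Uextra (18.4%) and 245 of the 615 of U (39.8%) in runs. Such shares rise with peak density and were not adjusted for it, so grouping beyond density was not tested. U had the larger share of these 2 parts at the lower density, 61.3 against 75.8 peaks per Mb. Runs stayed short. There were 30 of 2 members, 12 of 3, 6 of 4 and 1 each of 5, 6 and 7, and the longest in earlier Uextra had 8. All 9 runs of 4 or more began past the first 500 kb. The run of 7 spanned 14418 bp, from 28906983 to 28921400, and its distances ranged from 71 to 949 bp. Its members were unlike one another. The highest score, 731.69, belonged to a peak of 3525 bp, and the lowest, 81.24, to a peak of 547 bp next to it.

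Members were narrow. Their median width was 1019.5 bp (interquartile range 813.5 to 1363 bp), against 1256 bp in earlier Uextra (1068 to 1697 bp) and 1939 bp on U (1398 to 2892 bp). Peaks under 1 kb made up 45.9% of the members (101 of 220, 95% Wilson interval 39.5 to 52.5%), 12.7% of earlier Uextra (269 of 2123, 11.3 to 14.2%) and 1.79% of U (11 of 615, 1.00 to 3.17%). Under 750 bp there were 43 members, 39 peaks in the far longer earlier part and 2 on U. Among wide peaks the parts of Uextra crossed over. Peaks over 2 kb made up 8.64% of the members and 11.8% of earlier Uextra, with intervals that overlapped (5.60 to 13.1% and 10.5 to 13.2%), whereas on U they made up 47.3%. Over 3 kb the order was the other way, at 4.09% of the members (9 of 220, 2.17 to 7.59%) and 2.26% of earlier Uextra (48 of 2123, 1.71 to 2.98%), again with intervals that overlapped. Such overlap is not a test, and does not show that the shares were alike. The narrowest members were 475 bp at 28459785 to 28460259, 477 bp at 28130374 to 28130850 and 485 bp at 28577940 to 28578424, with scores of 75, 56.94 and 180.03.

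The small width was also found away from close neighbours. The 82 members with no other member within 1 kb had a median width of 1011 bp, and the 138 with one had 1023 bp. The 16 members that were over 5 kb from any other had 1062 bp. Of these 16, 13 lay in the first 500 kb, as did 36 of the 82 and 23 of the 138. The median width of all members there was 934 bp, so spacing and position were not separated. Joining peaks less than 1 kb apart, however, brought the median width to 1288 bp in the end stretch and 1316 bp in earlier Uextra. The parts of Uextra were then nearly alike in width. Joining widens peaks by construction, and more often at the end, where 62.7% were in runs against 18.4% in earlier Uextra.

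**Figure D2:**
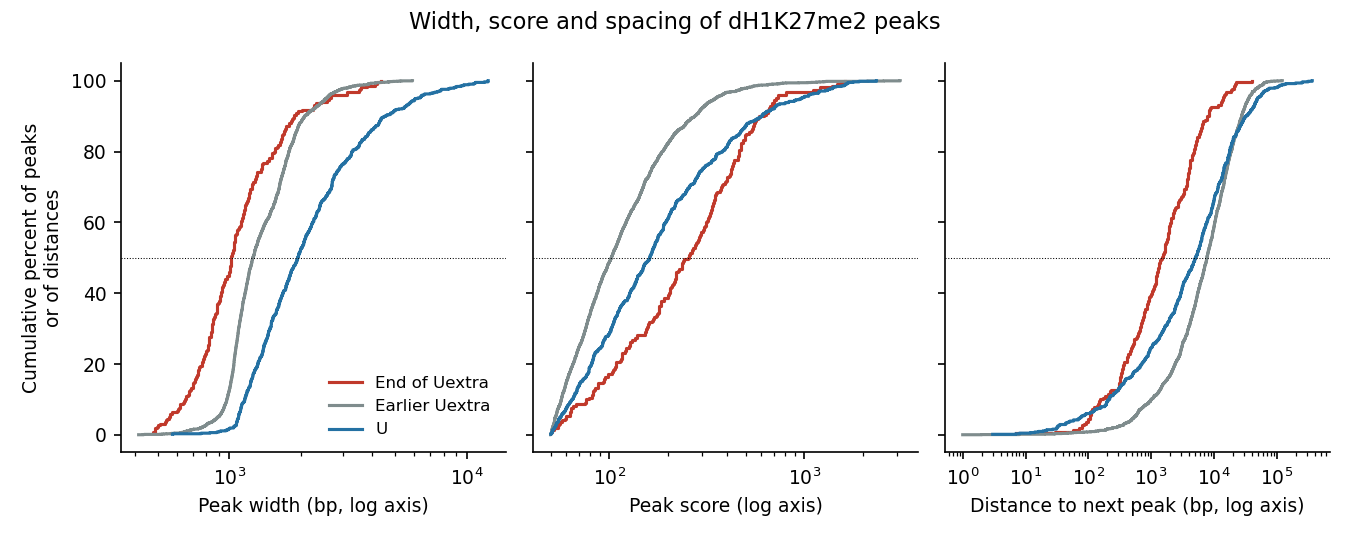
Cumulative percent of peaks by width in bp (left) and by deposited score (middle), and of distances from a peak to the next in bp (right), on log axes, for the end of Uextra (red), earlier Uextra (grey) and U (blue), with a dotted line at the median. At the dotted line the red curve lies to the left of both others for width and distance and to the right for score, with medians of 1019.5 bp, 1499 bp and 254.5, and for width the red and grey curves cross among the widest peaks.

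Although narrow, the members scored high. The authors' score of each peak is used here only to rank and describe the peaks of this list. The median score was 254.5 at the end of Uextra (interquartile range 127.2 to 422.6), 102.2 in earlier Uextra (70.1 to 164.8) and 161.3 on U (91.8 to 299.8). A score at or above the list's median was carried by 160 members (72.7%, 95% Wilson interval 66.5 to 78.2%), 34.3% of earlier Uextra (32.3 to 36.4%) and 56.4% of U (52.5 to 60.3%). Of the 79 peaks on Uextra that scored above 500, 34 were members, a share of 43.0%, against 9.39% of all peaks on Uextra. Such scores were held by 15.5% of the members (11.3 to 20.8%) and 2.12% of earlier Uextra (1.59 to 2.82%). On U the share was near that of the members, at 12.8% (10.4 to 15.7%). The members did not include the extremes of the list. Their highest score was 1609.68, whereas earlier Uextra reached 3100 and U 2342. On U, scores over 1000 were held by 29 of 615 peaks (4.72%), and among the members by 7 of 220 (3.18%), with intervals that overlapped (3.30 to 6.69% and 1.55 to 6.42%). In earlier Uextra they were held by 12 of 2123 peaks (0.565%, 0.324 to 0.985%). Low scores occurred too: 38 members (17.3%) scored under 100, and the lowest scores were 50.18, 50.5 and 51.08, near the list's floor of 50.02.

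Each of the 28 earlier windows of 1 Mb had a lower median score than the window that starts at 28 Mb. The earlier medians ran from 81.5 to 168.9, and that of the last full window was 254.5. In windows of 100 kb, however, the earlier medians reached 489.4, above the highest of the end stretch, 349.5. The full 1 Mb windows of the Het sequences had medians of 161.1 to 361.3. The highest earlier 1 Mb median on Uextra, 168.9, belonged to its first window. That window was also the densest of the earlier part, with 121 peaks, and had the widest peaks, at a median of 1659 bp. The first and last full 1 Mb windows of Uextra were thus both dense and high in score, but the peaks were wide in the first and narrow in the last. This contrast in width did not hold for the last full 100 kb window, where the median was 1657 bp. The end of U looked different. Its last full window, from 9 to 10 Mb, held 55 peaks with a median width of 1255 bp and a median score of 82.6, the lowest of its 10 windows in both.

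Peaks with both small width and high score were a larger share of the members than of the other parts. Peaks under 1 kb that scored at or above the list's median made up 24.5% of the members (54 of 220, 95% Wilson interval 19.3 to 30.6%), 3.49% of earlier Uextra (74 of 2123, 2.79 to 4.35%) and 0.813% of U (5 of 615, 0.348 to 1.89%). Within the members, narrow peaks reached that score less often: 54 of the 101 under 1 kb, against 160 of all 220. The joint share restates the widths and scores given above and is not a separate trait. At like width, the members scored higher in all but the narrowest class. Among peaks of 1000 to 1250 bp the median score was 296.7 for 55 members, 79.9 for 781 peaks of earlier Uextra and 65.4 for 88 of U. Among peaks of 1500 to 2000 bp it was 422.4 for 29 members, 106.7 for 531 peaks of earlier Uextra and 127.7 for 135 of U. Among peaks under 750 bp the parts of Uextra were close, at 126.3 for 43 members and 121.5 for 39 earlier peaks.

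At like score, the members were narrower in every class. When all Uextra peaks were split into 5 equal classes by score, the highest class, from 209.8 upwards, took 128 members (58.2% of them), 341 peaks of earlier Uextra (16.1%) and 223 of U (36.3%). The median widths in it were 1140.5, 1613 and 3268 bp. In the lowest class, under 66.5, there were 18 members with a median width of 776 bp, 451 earlier peaks at 1056 bp and 69 peaks of U at 1129 bp. The rank correlation of score and width was 0.54 across the 220 members, 0.43 across the 2123 earlier peaks and 0.80 across the 615 of U. Peaks of 1 pooled list share libraries and are not replicates, so these coefficients carry no p-value. The list does not say how its scores were made, and their dependence on width was not tested.

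**Figure D3:**
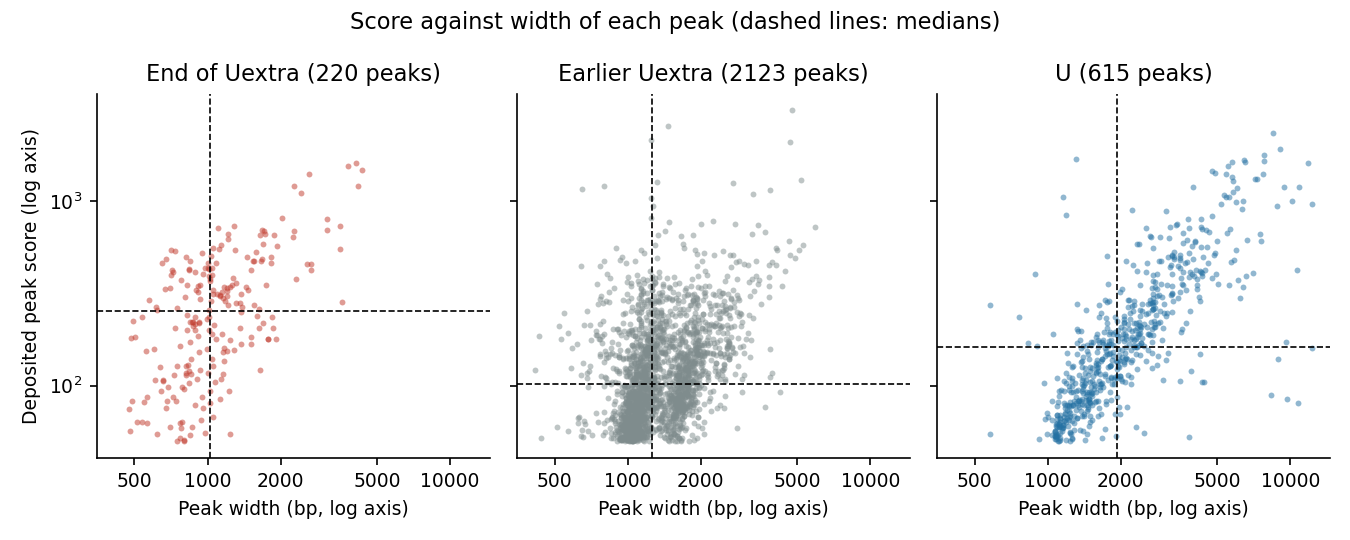
Deposited score (vertical log axis) against width in bp (horizontal log axis) of each peak at the end of Uextra, in earlier Uextra and on U, with dashed lines at the medians. The median lines of the 220 members cross at 1019.5 bp and a score of 254.5, to the left of and above those of the other panels, while the members spread over low and high scores, and the rank correlation is highest on U (0.80).

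Score and width both changed along the stretch. The 15 members of the first 200 kb had a median score of 116.7 and a median width of 848 bp. The 44 members from 200 to 500 kb had 208.6 and 948 bp, the 126 from 500 to 900 kb had 297.8 and 1018 bp, and the 35 past 900 kb had 302.1 and 1657 bp. The first 200 kb was thus close to earlier Uextra in density and score. Narrow peaks were found before the stretch too, since the window from 27 to 28 Mb had a median width of 1095 bp, the smallest of the 28 earlier windows, over 63 peaks with a median score of 128.4. The last full 100 kb window had a median width above that of earlier Uextra and was covered to 56.0%. Full windows of 100 kb reached 54.7% in earlier Uextra, 66.2% on U and 79.5% on the Het sequences. The rank correlation with position was 0.21 for score and 0.23 for width across the 220 members, so most of the spread among the members was not a steady trend. All 19 members wider than 2 kb lay past the first 500 kb, and 10 of them lay past 900 kb.

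**Figure D4:**
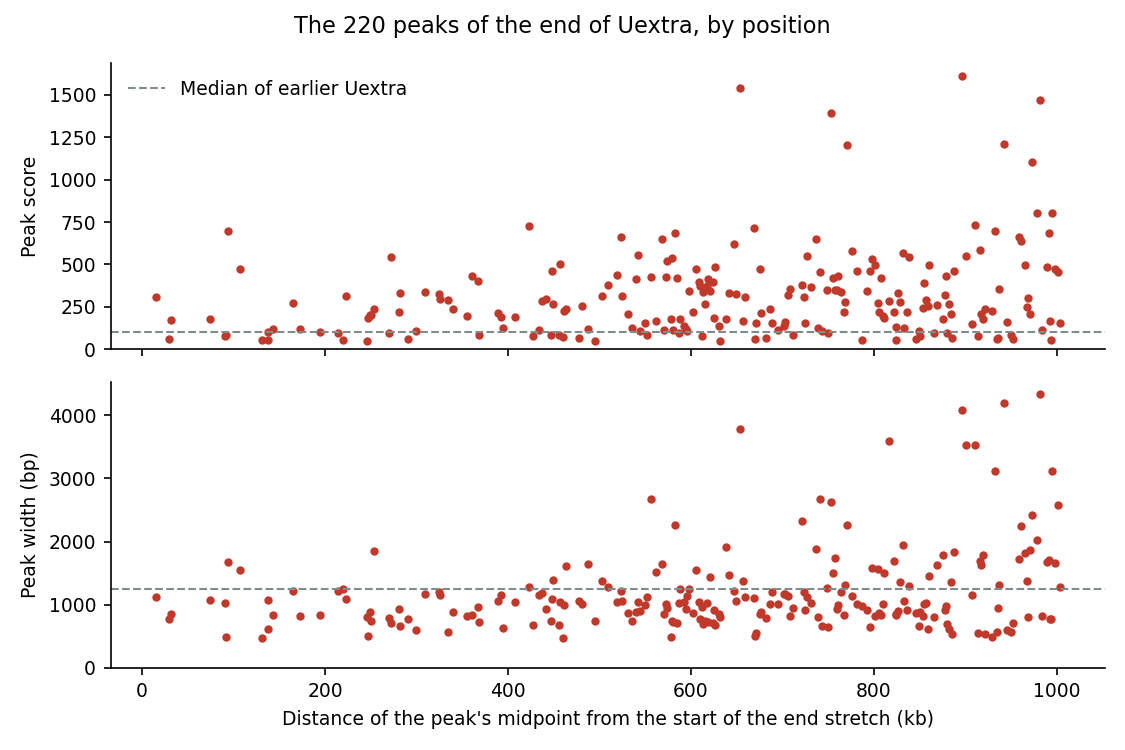
Deposited score (top) and width in bp (bottom) of each of the 220 members against the distance of its midpoint from the start of the end stretch in kb, with dashed lines at the medians of earlier Uextra (102.2 and 1256 bp). The 7 members with a score over 1000 all lie at 654 kb or beyond, among many low and narrow peaks.

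The 10 members with the highest scores were all wide, at 2026 to 4341 bp. All lay past the first 500 kb and 6 lay past 900 kb. Both statements depend on stopping at 10. The member ranked next, with a score of 728.59, was 1288 bp wide and lay in the first 500 kb. Nor did all wide members score high, since one of 3588 bp scored 284.07. The highest, with a score of 1609.68, spanned 4085 bp at 28894807 to 28898891. The next, with 1542.78, spanned 3777 bp at 28652078 to 28655854. A peak of 4341 bp at 28979196 to 28983536 was the widest member and scored 1470.55. It followed a peak of 2026 bp at 28977047 to 28979072 that scored 803.54. The second widest, 4191 bp at 28939968 to 28944158, scored 1208.25.

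Narrower peaks stood among the 10 as well. The peak at 28751894 to 28754518 had a width of 2625 bp and a score of 1390.23, and that at 28769557 to 28771823 had 2267 bp and 1207. The peak at 28972323 to 28974740 was 2418 bp wide, with a score of 1101.71. The remaining members of the 10 spanned 3113 bp at 28993823 to 28996935, with a score of 801.64, and 3525 bp at 28909009 to 28912533, with 731.69, the latter in the run of 7. The 3 widest members were all among these 10. The last member, which is also the last peak on Uextra, spanned 1281 bp at 29002500 to 29003780 and scored 156.11.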

How the data were processed

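Chromatin immunoprecipitation sequencing of S2 cells gave 1 deposited peak list for 3 samples. Per the labels' protocols, libraries were made from sonicated nuclei with a PCR enrichment step. The submitters' processing notes name the build dm3 and MACS 1.4 and 1.4.2, with no role or order, and the peaks carry MACS default names. The score of each peak was deposited by the authors without a header that says how it was computed. Starts and ends of peaks were also deposited; coordinates are printed 1-based. How reads that match several places were treated, and whether all runs of the first immunoprecipitation entered the merge, is not given in the sources used here.

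From these values, width (end minus start), midpoint, distance to the next peak and counts per window (by midpoint) were computed with Python 3.11.15, NumPy 2.4.6, pandas 2.3.3 and SciPy 1.17.1. Lengths run to the end of the last peak, since no sequence lengths came with the list. Peaks are not replicates, and no test across them was made. Intervals are 95% exact Poisson intervals for counts, exact binomial intervals for density ratios and Wilson intervals for shares, and cover counting only. Medians were also given 95% intervals across peaks, used only to compare the alternatives. All of them treat peaks as independent, so whether intervals overlap is not a test of a difference. The calculations were tested on simulated peaks.

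The stretch and all comparisons were chosen with earlier results of these data known. The peaks named one by one were the 10 members with the highest score, the 3 widest, the 3 narrowest, the 3 with the lowest score, the closest and the most distant neighbours, the longest run, the last member and the 2 peaks on each side of the boundary. The alternatives were another boundary, a score of 100 or more, joining peaks with under 1 kb between them, the share of bases covered, other stretches of earlier Uextra and distances between midpoints.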

Additional observations from a re-analysis of the deposited data

How the results depend on the processing

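The end of Uextra stayed denser than earlier Uextra and U under all alternatives computed, but by amounts that moved. The stretch was selected on its known density and every alternative kept its densest windows in the end part. The direction is therefore a description and not a test. The ratio to earlier Uextra, 2.89 as reported (exact binomial 95% interval 2.50 to 3.32), was 2.27 with the boundary 0.5 Mb earlier, 4.17 with it 0.5 Mb later and 3.36 with it 200 kb later, the last chosen after seeing the data. It was 4.67 with scores of 100 or more, 1.94 with peaks less than 1 kb apart merged, 2.41 by bases covered and 3.48 against 27 to 28 Mb alone. The ratio to U, 3.58 as reported, was 2.81 and 5.21 with the boundary 0.5 Mb earlier and later, 2.87 with merging and 1.71 by bases covered. The median width was 1078.5 bp with scores of 100 or more (1485 bp in earlier Uextra) and 1288 bp with merging (1316 bp). The median score was 302.1 with the boundary 0.5 Mb later (103.5 in earlier Uextra) and 307.3 with scores of 100 or more (163.0). The median distance was 1157.5 bp with the boundary 0.5 Mb later, 3584 bp with merging (8980.5 bp in earlier Uextra) and 2752 bp between midpoints. The other 11 of 29 alternatives lay within the 95% interval of the reported value. Besides that of the ratio to earlier Uextra, these intervals were 3.05 to 4.18 for the ratio to U and 945 to 1078 bp for the median width. They were 215.2 to 296.7 for the median score and 1182 to 1884 bp for the median distance. Merging joins close neighbours, which are more frequent at the end, so it lowers the count and raises widths and distances there by construction. Merging was not run for the score. No paired analysis was possible because both immunoprecipitations were pooled before peak calling, and leaving out a replicate was not possible for the same reason. Depth is unknown, so how many peaks lie near detection cannot be given.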

Other observations

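Equal values were rare among the members. A single pair of them shared a score, 179.26, with widths of 1079 and 1916 bp, and no pair shared both score and width, a count of 0 of 220 members (95% Wilson upper limit 1.72%). In earlier Uextra 53 of 2123 peaks (2.50%) shared both score and width with another peak of that part, and none of the 53 scored at or above the list's median. A share of this kind grows with the number of peaks, so it was also counted over pairs. Per 1000000 pairs, 0 pairs of members had equal score and width (exact 95% Poisson upper limit 153.1), against 12.4 in earlier Uextra (8.26 to 18.0). On the same scale, 41.5 pairs of members had equal scores (exact 95% Poisson interval 1.05 to 231.3), against 76.8 in earlier Uextra (65.8 to 89.1) and 84.7 on U (48.4 to 137.6). The intervals overlapped for both measures. Pairs share peaks and are not independent, so the intervals are only a guide and a difference was not tested.

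The highest-scoring 10% of the peaks of Uextra, from a score of 312.0 upwards, numbered 236, and 90 of them (38.1%) lay in the end stretch. The narrowest 10%, up to 935.2 bp, numbered 235, and 92 of them (39.1%) lay there. The stretch held 9.39% of all peaks of Uextra. It was selected with its scores known, so these shares are descriptions.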
